A study of Mus musculus with 10 samples.

Results

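The constitutive androstane receptor CAR (Nr1i3), the pregnane X receptor PXR (Nr1i2), and the genes Cyp2b10, Cyp3a11, Cyp3a13, Cyp3a25 and Por were followed across 10 Affymetrix arrays of mouse liver. The members were chosen by gene symbol, and each gene was represented by the probe set with the highest mean over all 10 arrays. Of the 7 genes, 6 had a probe set of a single gene, all 6 passed the filter on dim genes, and 11033 of the 18194 genes with such a probe set passed it in all. Por, which encodes the NADPH-cytochrome P450 reductase that passes electrons to the P450 enzymes, was not analysed here because the probe annotation used lists no probe set for it.

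The series compared livers of mice lacking Gnmt, which encodes glycine N-methyltransferase, a methyl transfer enzyme of hepatocytes, with wild-type livers and with lesions of aged knockout mice, all on a 129/B6 background. The Gnmt -/- (KO) groups comprised 2 arrays of hepatocellular carcinoma (HCC), from a male of 18 months and a female of 14 months, 1 array of dysplastic nodules from a female of 21 months, the 3 livers adjacent to these lesions, and 2 liver pools of 11 weeks. The wild-type (WT) group comprised 2 liver pools of 11 weeks. Each pool of 11 weeks mixed RNA of 3 mice of 1 sex, with 1 female and 1 male pool per genotype, whereas each aged array held tissue of 1 mouse. Every aged sample was a knockout, so no aged wild-type liver entered any comparison, and lesions and adjacent livers were paired by sex and age because the labels give no mouse numbers.

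CAR and PXR are nuclear receptors that sense drugs, bile acids and other small lipophilic molecules in hepatocytes. Both bind DNA as partners of the retinoid X receptor and switch on genes of drug metabolism, with Cyp2b10 the classical target of CAR and Cyp3a11 that of PXR in mouse liver. Their binding sites are pairs of a hexamer arranged as direct or everted repeats, and the receptors share many sites and targets. Cyp2b and Cyp3a enzymes oxidise drugs, steroids and bile acids, and several genes of both families differ between the sexes in mice.

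The start regions of 4 of the genes are shown to set the gene whose signal varied most, Cyp2b10, beside its receptor Nr1i3 and the 2 Cyp3a genes with the most copies of that hexamer. Each run has 250 bases before and 50 bases from a listed first transcribed base on, from RefSeq on GRCm38.p6. For Nr1i3 and Cyp3a25 that base lies inside the gene bounds given below and not at their edge. Capitals mark every match to the hexamer AGNTCA on either strand.
Cyp2b10, chr7:25897408-25897707, plus strand: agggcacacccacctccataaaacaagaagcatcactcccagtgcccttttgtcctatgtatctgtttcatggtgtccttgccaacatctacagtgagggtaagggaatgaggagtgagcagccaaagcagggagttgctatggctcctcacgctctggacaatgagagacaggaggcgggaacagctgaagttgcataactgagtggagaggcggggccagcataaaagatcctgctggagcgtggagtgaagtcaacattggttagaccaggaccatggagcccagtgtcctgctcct
Nr1i3, chr1:171213720-171214019, plus strand: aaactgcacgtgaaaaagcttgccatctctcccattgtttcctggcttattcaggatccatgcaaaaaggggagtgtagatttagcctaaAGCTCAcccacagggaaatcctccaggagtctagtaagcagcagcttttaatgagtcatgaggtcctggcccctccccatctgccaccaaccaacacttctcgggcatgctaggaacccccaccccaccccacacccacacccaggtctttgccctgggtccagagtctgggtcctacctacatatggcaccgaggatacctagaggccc
Cyp3a11, chr5:145879805-145880104, minus strand: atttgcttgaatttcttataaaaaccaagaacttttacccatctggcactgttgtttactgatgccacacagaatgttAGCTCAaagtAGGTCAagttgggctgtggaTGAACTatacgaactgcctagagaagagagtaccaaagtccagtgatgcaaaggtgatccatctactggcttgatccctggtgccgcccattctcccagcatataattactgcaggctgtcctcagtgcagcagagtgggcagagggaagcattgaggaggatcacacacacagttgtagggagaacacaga
Cyp3a25, chr5:146009569-146009868, minus strand: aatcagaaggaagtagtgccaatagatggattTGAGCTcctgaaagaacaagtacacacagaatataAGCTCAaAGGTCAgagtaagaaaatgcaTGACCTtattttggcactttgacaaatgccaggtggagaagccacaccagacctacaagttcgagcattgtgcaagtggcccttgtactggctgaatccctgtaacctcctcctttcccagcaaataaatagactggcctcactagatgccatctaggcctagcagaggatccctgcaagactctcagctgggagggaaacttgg
The Cyp3a11 run held AGCTCAAAGTAGGTCA, a direct repeat of the hexamer with 4 bases between the copies, at bases -172 to -157, where 0 is the first transcribed base. That repeat, searched as AGNTCA, 4 bases of any kind and AGNTCA on both strands, occurred in 0.125% of 32851 mouse start regions of the same length. Single hexamers, which include those inside the repeat, numbered 3 in Cyp3a11, 4 in Cyp3a25, 1 in Nr1i3, 1 in Cyp3a13 and 0 in Cyp2b10, Nr1i2 and Por, and 46.6% of all start regions held at least 1. No match was found in any of the 7 genes to the direct repeat with 3 bases between the copies, to the everted repeat of TGANCT, 6 bases and AGNTCA, or to TTANGTAA, the site of the PAR bZIP clock output factors, which 0.07%, 0.0304% and 2.32% of start regions held. The absence of these letters from a window says nothing of sites elsewhere in a gene.

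The deposited signals had a trimmed mean of 500 on every array and medians of 77.4 to 102.4. Gnmt itself read 190 and 245 in the KO pools and 11.7 to 329 in the aged KO tissues, against 59473 and 52140 in the WT pools. The hepatocyte marker sum, over 8 of 10 listed genes, was high on every array, at 386963 to 612297. Arrays differed beyond the groups. The ratio of the hybridisation controls BioC and BioB was 1.45 to 1.84 on the aged arrays and 3.90 to 5.09 on the young ones. The clock output gene Dbp read 8414 to 11097 in both KO pools and the WT male pool but 190.6 in the WT female pool, and Arntl, which peaks in the opposite phase, read 22.2 to 85.2 in the first 3 and 911.5 in the WT female pool. The HCC and adjacent liver of the male also had low Dbp, at 42.2 and 213.6, and Arntl at 847.2 and 553.2. In the female with HCC, Arntl read 382 in HCC and 337.7 in adjacent liver, with Dbp at 2390 and 4939. The nodule and its adjacent liver had Arntl at 128.7 and 13.6 and Dbp at 2505 and 7798. Each lesion thus had lower Dbp than its adjacent liver. The WT female pool and the tissues of the male stood furthest apart in these clock genes, and the tissues of the female with HCC stood apart in Arntl. The part of these genes in the results below was not tested.

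Nr1i3, on chromosome 1 at 171213934 to 171218845 (GRCm38.p6), was lower on all 8 KO arrays than in both WT pools, as were 7.23% of all genes tested. Its signal was 2606 in the male and 2478 in the female KO pool, against 4305 in the male and 6864 in the female WT pool. The KO pools lay close together and below both WT pools, which were far apart from each other. The log2 difference between KO and WT was -1.09 ± 0.25 (SE, n = 2 pools each), with -1.46 in females and -0.72 in males, and its adjusted p in limma was 0.0863, so it did not pass the threshold of 0.05. In the alternatives tried the adjusted p ran between 0.0165 and 0.938, and it was below 0.05 only after quantile normalization. With any 1 pool left out the difference ran between -1.55 and -0.64.

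The aged KO tissues had still lower Nr1i3 signals. The HCC arrays read 1011 in the male and 528 in the female, against 1168 and 1407 in the adjacent livers of the same male and female. The nodule read 1261, against 1875 in its adjacent liver. Every lesion was thus below its own adjacent liver, and in the female with HCC the gap was widest. The log2 difference was -0.80 ± 0.34 for the 2 HCC pairs and -0.72 ± 0.26 over all 3 pairs (SE), with adjusted p-values of 0.63 and 0.429 in limma, so neither passed. With any 1 array left out, in fits over all arrays without the pairing, the difference ran between -1.40 and -0.19 for HCC. Over all lesions it ran between -0.98 and -0.31. The 3 adjacent livers were all below both young KO pools, by 0.84 ± 0.25 log2 units, with an adjusted p of 0.386.

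**Figure D1:**
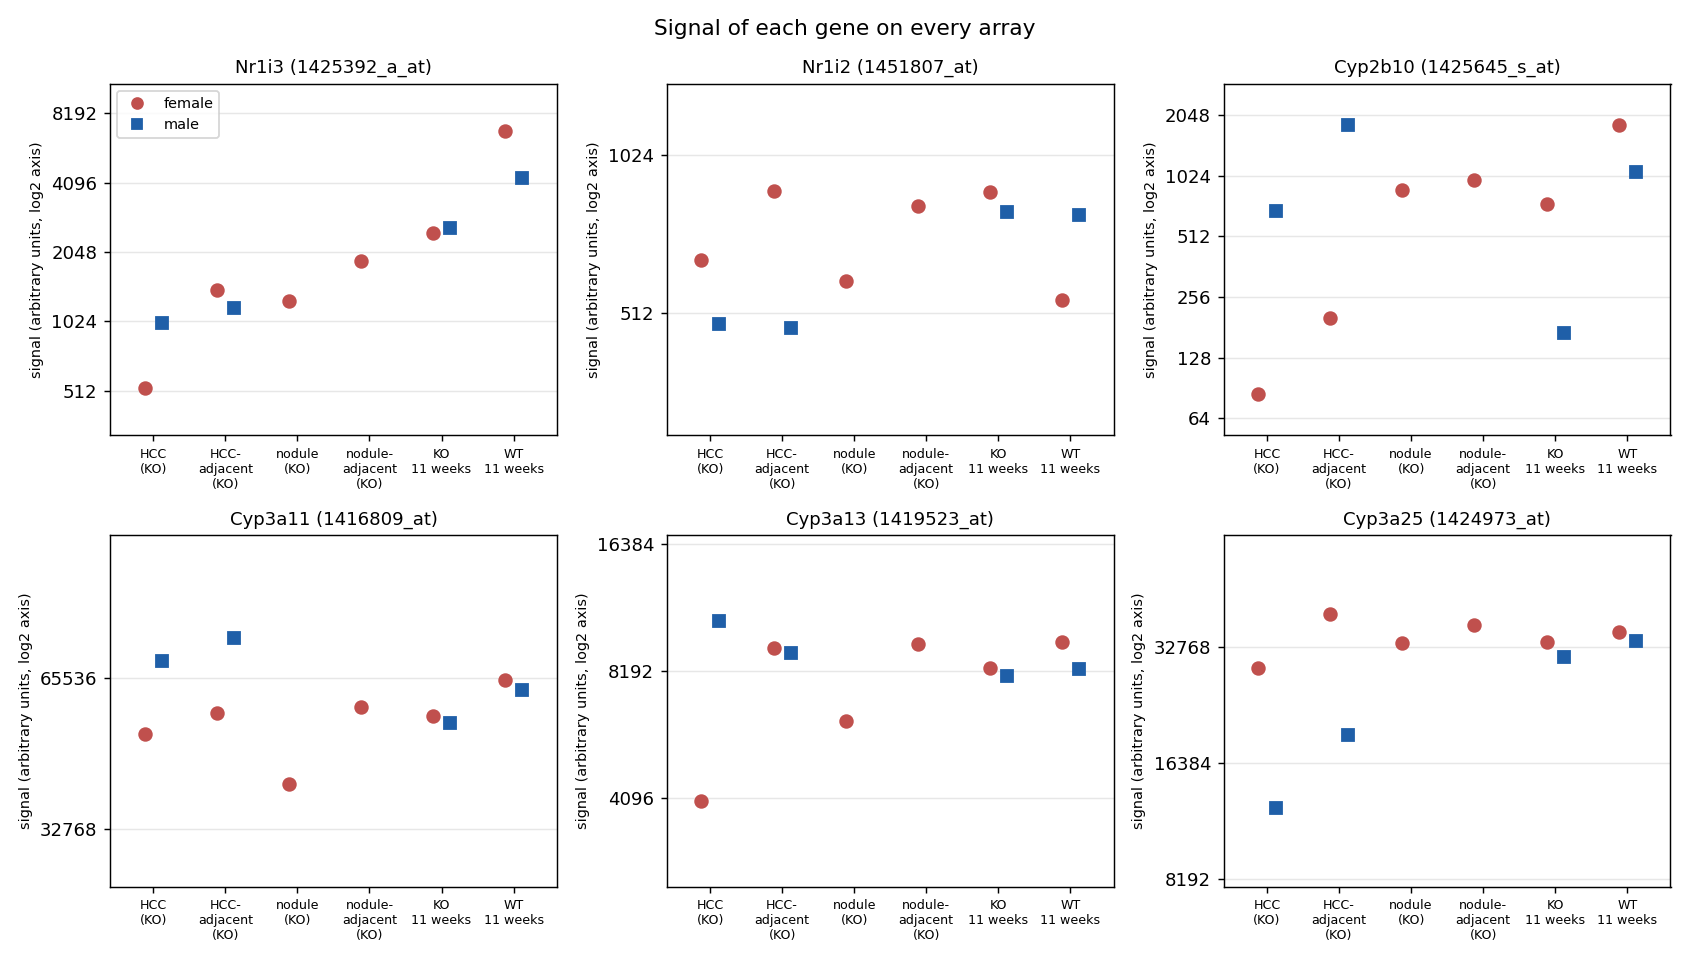
Signals of the 6 genes on the 10 arrays, on a log axis, 1 panel per gene, with the groups along the horizontal axis. Each point is 1 array, with circles for females and squares for males. Nr1i3 was lowest in the female HCC, at 528, and highest in the WT pools, at 4305 and 6864, and Cyp2b10 was spread over 84.6 to 1834 with arrays of 1 group far apart.

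Ordered by group mean, Nr1i3 stood at 769.7 ± 341.5 in HCC (SD, n = 2), 1261 in the nodule, 1288 ± 168.8 in HCC-adjacent liver, 1875 in nodule-adjacent liver, 2542 ± 90.2 in the KO pools and 5584 ± 1810 in the WT pools. The nodule and the HCC-adjacent livers differed by less than the spread of the adjacent livers. An order in which all 6 aged KO arrays lay below both KO pools, and both KO pools below both WT pools, was found in 1 of 6 members, Nr1i3, and in 112 genes, or 1.02%, of all tested. The order was read from the Nr1i3 values themselves, so that Nr1i3 meets it is a description and not a test. For this order, age, the presence of lesions, single mice against pools and the hybridisation cannot be told apart between the aged and the young arrays. The genes whose log2 values followed Nr1i3 most closely over the 10 arrays were Slc27a2 with a Pearson r of 0.977, Acadvl with 0.958 and Atraid with 0.956, as a description of arrays that share groups.

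Nr1i2, on chromosome 16 at 38248349 to 38294849, varied least of the 6 genes on the probe sets used here, with a ratio of highest to lowest signal of 1.82. It read 797 in the male and 869 in the female KO pool, against 785 in the male and 542 in the female WT pool. The KO pools were both above the WT pools, by little in males and by more in females, as were 22.0% of genes, and the log2 difference of 0.34 ± 0.26 had an adjusted p of 0.51. The second Nr1i2 probe set gave 843 in the male and 738 in the female KO pool, against 933 in the male and 731 in the female WT pool, a log2 difference of -0.06 that runs the other way. The 2 probe sets therefore gave no common direction for Nr1i2 in young KO liver. The second also ran more widely over the 10 arrays, from 414.3 to 932.8, against 479.9 to 874.1 on the first.

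In the lesions Nr1i2 read 487 in the male HCC, 645 in the female HCC and 589 in the nodule, against 479.9, 874 and 819.8 in the adjacent livers of the male, the female and the nodule. It was lower in the 2 lesions of females and level in the male, whose tissues both had the lowest signals of the 10 arrays. The log2 difference over all 3 pairs was -0.29 ± 0.20 with an adjusted p of 0.684. The nearest patterns over the 10 arrays were those of Tlcd2, Ppdpf and Abcd3, with r of 0.943, 0.941 and 0.938.

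Cyp2b10, on chromosome 7 at 25897658 to 25926624, had the widest range of the 6 genes, with a ratio of highest to lowest signal of 21.7. It read 169 in the male and 742 in the female KO pool, against 1071 in the male and 1834 in the female WT pool. Both KO pools were below both WT pools, and the male KO pool was far below the female one. Its log2 difference of -1.92 ± 0.33 (SE, n = 2 pools each), 3.78-fold lower in KO, had an adjusted p of 0.049 in limma, with -1.29 in females and -2.55 in males. Cyp2b10 was the 1 member of 6 called, where 1.45% of all genes tested were called, 0.707% as higher and 0.743% as lower. Nr1i3 and Cyp2b10, or 2 of 6, had an unadjusted p below 0.05, against 19.5%.

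This call lies at the threshold, and in simulated data of this design the share of false calls was above the nominal 0.05. It was made with the mean of log2 values for choosing probe sets and filtering, and with the mean of linear signals in both steps, which was fitted first, the adjusted p was 0.0602. Over 17 alternatives the adjusted p ran between 0.00382 and 0.998 and was below 0.05 in 5. The difference was -2.94 without the male WT pool, -0.89 without the female WT pool, -3.78 without the female KO pool and -0.05 without the male KO pool, none of them called. These fits cover all arrays and take their sex term partly from aged tissue.

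The gene had 3 probe sets, 2 of them with the suffix the manufacturer gives to probe sets that match several transcripts, so signal from other Cyp2b genes may be included. The second read 156 in the male and 767 in the female KO pool, against 663 in the male and 1179 in the female WT pool. The third read 199.5 in the male and 648 in the female KO pool, against 812 in the male and 1384 in the female WT pool. Within each sex all 3 probe sets were lower in KO, but on the second the female KO pool exceeded the male WT pool. Their log2 differences were -1.29 and -1.51, with adjusted p-values of 0.12 and 0.056.

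**Figure D2:**
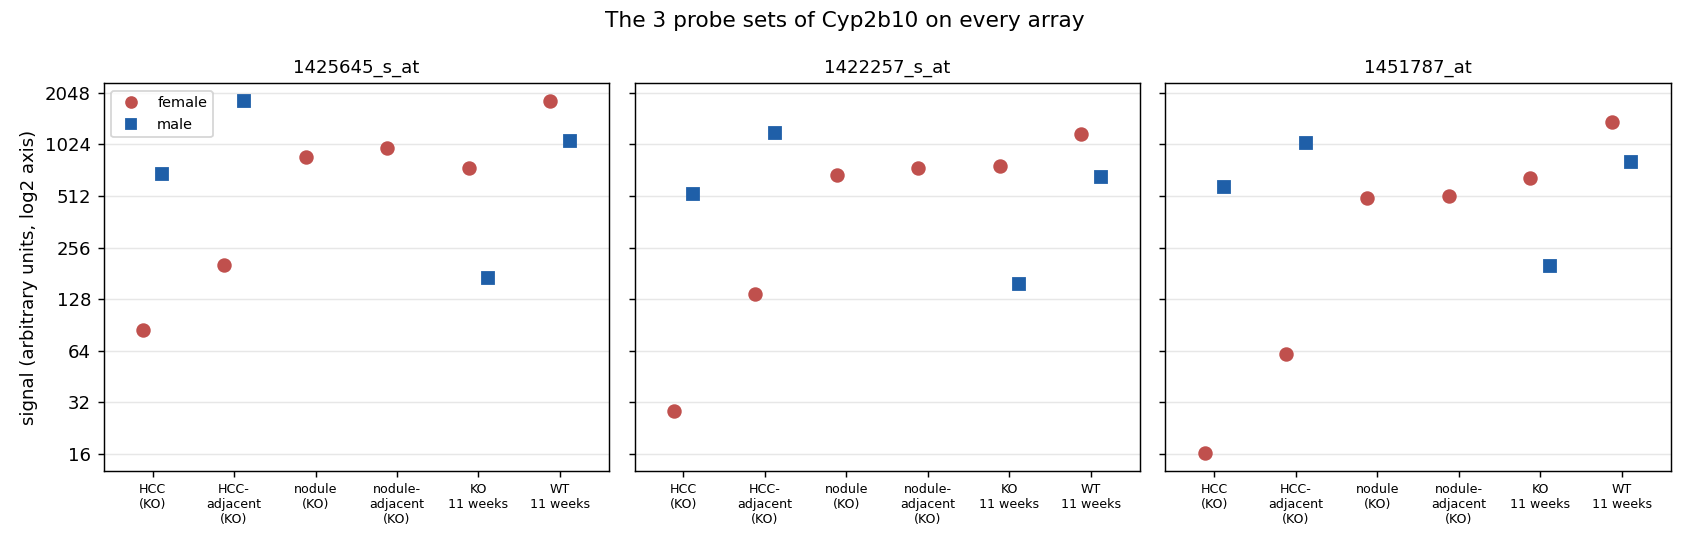
Signals of the 3 Cyp2b10 probe sets on the 10 arrays, on a log axis, 1 point per array. All 3 had their lowest signal in the female HCC, at 16.2 to 84.6, and within each sex the KO pool lay below the WT pool.

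In the aged mice Cyp2b10 differed widely from mouse to mouse. The HCC arrays read 686 in the male and 84.6 in the female, against 1829.9 and 202 in their adjacent livers, and the nodule read 868, against 971 in its adjacent liver. Each lesion was below its own adjacent liver, yet the male HCC was above the adjacent liver of the female. The log2 difference was -1.25 ± 0.31 for the 2 HCC pairs, -1.11 in the female and -1.39 in the male, with an adjusted p of 0.248, and -0.89 ± 0.28 over all 3 pairs, with 0.39. Against the young KO pools, the adjacent livers differed by 3.31 log2 units in the male and by -0.71 on average over the 2 females. The fitted 1.01 ± 0.97 had an adjusted p of 0.67 in limma. The 2 females went opposite ways, with nodule-adjacent liver at 971 and HCC-adjacent liver at 202, against 742 in the female KO pool. The female with HCC also had low signals of the female-predominant Cyp2b9, at 51.4 in HCC and 66.1 in adjacent liver, against 2450 in the nodule and 2579.9 in the nodule-adjacent liver of the other aged female. Over the 10 arrays, Gcn1, Nlrp12 and Pdzd2 had the patterns nearest to Cyp2b10, with r of 0.988, 0.925 and 0.91.

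Cyp3a11, on chromosome 5 at 145854607 to 145879854, encodes the main drug-oxidising Cyp3a enzyme of mouse liver. It read 53175 in the male and 55042 in the female KO pool, against 61970 in the male and 64814 in the female WT pool. Both KO pools were below both WT pools by a small step, -0.23 ± 0.15 log2 units, with an adjusted p of 0.448. It read 70539 in the male HCC, 50744 in the female HCC and 40347 in the nodule, against 78407, 55654 and 57282 in the adjacent livers of the male, the female and the nodule. Each lesion was below its adjacent liver, by 0.26 ± 0.20 log2 units over the 3 pairs, with an adjusted p of 0.711. The acute phase gene Fgb, with r of 0.963, had the pattern nearest to Cyp3a11, followed by Serping1 with 0.955 and Apon with 0.949.

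Cyp3a13, on chromosome 5 at 137892933 to 137925610, read 7979 in the male and 8333 in the female KO pool, against 8289 in the male and 9608 in the female WT pool. The groups overlapped, and the log2 difference of -0.13 ± 0.19 had an adjusted p of 0.756. It read 10739.7 in the male HCC, 4035 in the female HCC and 6248 in the nodule, against 9017, 9274 and 9486 in the adjacent livers of the male, the female and the nodule. The lesions of both females were the lowest arrays of all, while the male HCC was the highest. Over the 3 pairs the log2 difference was -0.52 ± 0.29, with an adjusted p of 0.61.

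Cyp3a25, on chromosome 5 at 145977192 to 146009644, read 30901 in the male and 33879 in the female KO pool, against 34002 in the male and 35932 in the female WT pool. Both KO pools were below both WT pools by a small step, -0.11 ± 0.16 log2 units, with an adjusted p of 0.752. It read 12542 in the male HCC, 28872 in the female HCC and 33493 in the nodule, against 19382, 39920 and 37335 in the adjacent livers of the male, the female and the nodule. Each lesion was below its adjacent liver, and both tissues of the male were below all other arrays. Over the 3 pairs the log2 difference was -0.42 ± 0.20, with an adjusted p of 0.551. Sec16b with r of 0.988, Abcb8 with 0.971 and Slc47a1 with 0.971 were nearest to it, and Fetub with 0.933, Pidd1 with 0.93 and Igfbp2 with 0.928 were nearest to Cyp3a13. By rank most of these were less alike. Spearman rho was 0.964, 0.758 and 0.612 for the first 3 genes and 0.636, 0.758 and 0.648 for the last 3. Pidd1 ran from 11.5, below the added constant, to 211.5.

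Counted over the 6 genes with a value, 5 were lower in KO within both sexes, against 35.8% of all genes tested, and 4 had both KO pools below both WT pools, against 26.1%. In the HCC comparison 0 of 6 were called by limma, against 9 genes or 0.0816% of those tested, and 2 of 6 had an unadjusted p below 0.05, against 7.67%. Those 2 were Nr1i3 and Cyp2b10, and 4 of 6 members were lower in both HCC pairs, against 27.8%. Over all lesions 0 of 6 were called, against 1 gene or 0.00906% of those tested, with 2 of 6 at an unadjusted p below 0.05, against 9.94%, and 4 of 6 were lower in all 3 pairs, against 16.4%. In the nodule, which has no replicate and so no test, 0 of 6 differed at least 2-fold, against 11.7% of genes. The female HCC was the lowest of the 10 arrays in 3 of 6 members, against 8.07% of genes. The members were chosen with earlier results known, so these counts describe them and are not a test.

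**Figure D3:**
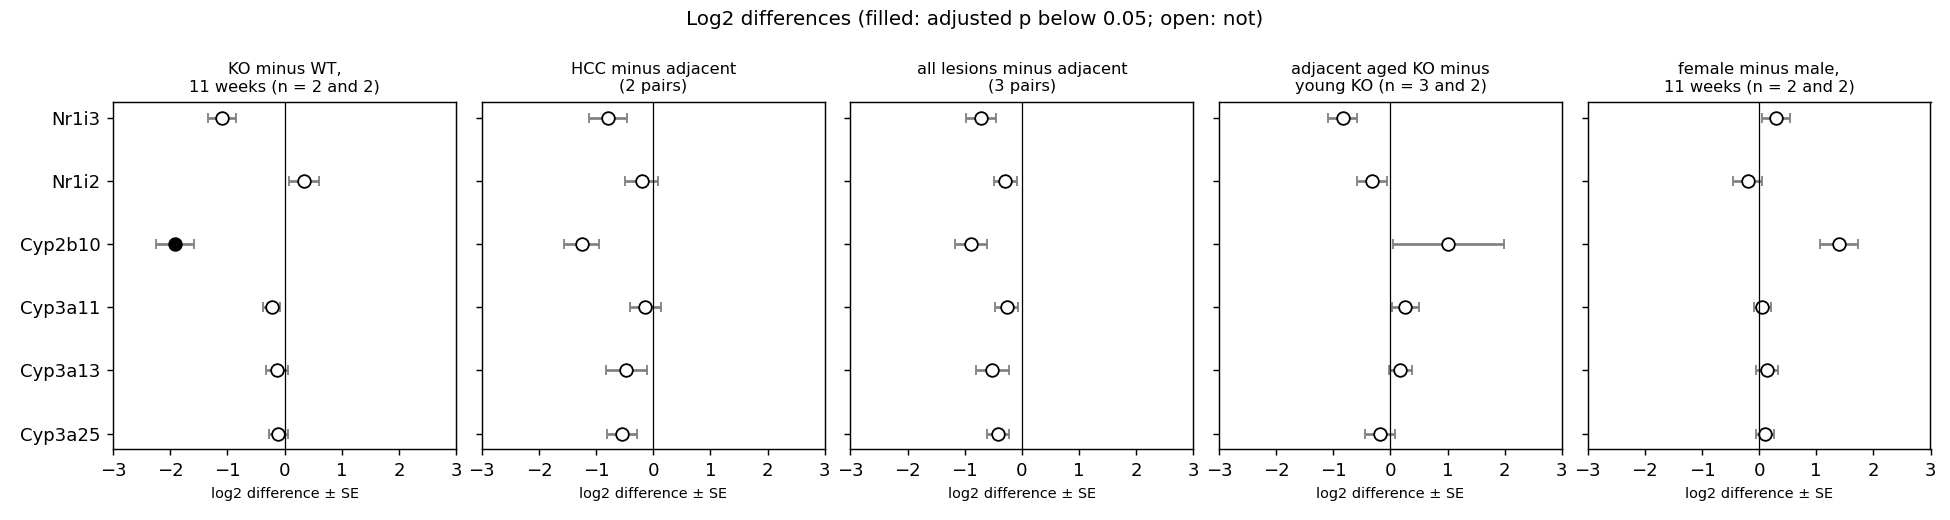
Log2 differences of the 6 genes in the tested comparisons, with KO minus WT, lesion minus adjacent liver, adjacent aged KO minus young KO and female minus male, bars giving the SE from limma. Cyp2b10 in young KO liver, at -1.92 ± 0.33, is the value whose adjusted p was below 0.05.

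Between aged and young KO liver, 0 of 11033 genes passed the adjusted threshold in limma, which is 0%, while 1355, or 12.3%, had an unadjusted p below 0.05, Nr1i3 among them as the 1 member of 6. Without the intensity trend, and with all arrays in 1 model, 0 genes passed as well. Of the members, 1 of 6 lay below both KO pools in all 3 adjacent livers, against 10.7% of genes, and 2 of 6, Cyp3a11 and Cyp3a13, lay above them, against 17.1%. Their log2 differences were 0.26 ± 0.23 and 0.17 ± 0.20, and the second was -0.02 after centring each array on its 75th percentile. Macrophage and Kupffer cell markers, all 9 of them measured, summed to 10568 to 21903 in the adjacent livers and 11158 to 12470 in the young KO pools, which overlap. B and plasma cell markers, 5 of 5 measured, summed to 3615 to 10489 in the adjacent livers and to 803 and 1191 in the young KO pools, so all 3 adjacent livers were higher. Neutrophil markers, 3 of 5 measured, summed to 13499 in the male adjacent liver, 692 and 1318 in the female ones, and 236 and 1021 in the young KO pools. No gene of these 3 lists was called, and their part in the member values was not tested.

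Between the sexes at 11 weeks, 0 of 6 members were called, against 30 genes or 0.272%, and 1 of 6, Cyp2b10, had an unadjusted p below 0.05, against 9.21%. Cyp2b10 was higher in females in both genotypes, by 2.03 log2 units in KO and 0.77 in WT, and the fitted 1.40 ± 0.33 had an adjusted p of 0.281. The direction turned in the model over all arrays, at -0.77, and with any 1 pool left out, at -1.70 to -1.28, in fits whose sex term draws partly on aged mice. Of the 6 genes, 4 were higher in females in both genotypes, against 31.6% of genes. Of the Cyp2b and Cyp3a relatives outside the member set, 3 were tested and all 3 were called higher in females. Cyp2b9 read 5814 in the female and 7.7 in the male KO pool, and 9346 in the female and 127.5 in the male WT pool, a log2 difference of 6.96 with an adjusted p of 0.00145. Cyp2b13 differed by 6.17 with 0.0344, and Cyp3a44 by 3.03 with 0.00902. Cyp2b9 in the male KO pool, at 7.7, and Cyp2b13 in the male WT pool, at 5.2, lay below the added constant, so the sizes for these genes depend on it. Cyp3a44 read 78.5 in the male KO and 140.3 in the male WT pool, above the constant. In the model over all arrays none of the 3 was called, with differences of 2.72, 3.29 and 1.33 and adjusted p-values of 0.523, 0.378 and 0.471. With any 1 pool left out none was called either, at 0.99 to 1.62 for Cyp2b9, 1.68 to 2.97 for Cyp2b13 and 0.67 to 0.86 for Cyp3a44.

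Other genes of the pathway were summarised by lists. Of 11 other phase I genes tested, 4 fell and 0 rose in young KO liver, with a list median of -0.50 log2 units, against -0.05 over all genes. Over all genes tested, 0.743% were called lower and 0.707% higher. Cyp2c54 read 4085 in the male and 6255 in the female KO pool, against 21490.4 in the male and 31056 in the female WT pool, a log2 difference of -2.35 ± 0.18 with an adjusted p of 0.00898. The P450 genes Cyp2c37 and Cyp2c50 fell by 2.17 and 1.43 log2 units, with adjusted p-values of 0.014 and 0.0178, and the carboxylesterase Ces2a by 1.16, with 0.0425. Both KO pools were below both WT pools for each of these 4 genes, but none was called when any 1 pool was left out, when no intensity trend was used or in the model over all arrays, and Ces2a also missed the threshold without the filter, at 0.0519, and with linear means, at 0.0503. Of all genes tested, 26.1% had both KO pools below both WT pools. The 4 genes were named for their differences in this same contrast, so that order is not a further test. Within the Cyp2c family, shared probes between relatives were not resolved.

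Of 12 phase II genes, 1 rose and 0 fell. It was the oestrogen sulfotransferase Sult1e1, which read 197 in the male and 1144 in the female KO pool, against 4.5 in the male and 137.5 in the female WT pool, a log2 difference of 3.12 ± 0.38 with an adjusted p of 0.019. The adjusted p of Sult1e1 was below 0.05 in 9 of 15 alternatives, and its male WT signal lay below the added constant. Without any 1 of the 4 pools its difference ran between 1.33 and 4.91. Those fits cover all arrays, so the effect of a lost pool and that of the changed model cannot be told apart. Of 14 receptor partners and upstream regulators, 6 transporters, 13 genes of haem synthesis and electron transfer, 3 other Cyp2b and Cyp3a genes and 14 clock genes, 0 were called in limma, while 6, 1, 2, 2 and 6 had an unadjusted p below 0.05. Over all genes 1.45% were called and 19.5% had an unadjusted p below 0.05, a share that the transporters, with 1 of 6, and the haem list, with 2 of 13, did not exceed. Cpox, the haem synthesis enzyme coproporphyrinogen oxidase, came nearest, at -1.22 with an adjusted p of 0.0581. The small receptor Nr0b2, a repressor partner of nuclear receptors, differed by -1.46 with 0.158, and by -2.69 to -0.23 with any 1 pool left out.

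In HCC, all 11 phase I genes had negative differences, with a list median of -0.99 log2 units, against -0.01 over all genes, but 0 were called in limma, against 0.0816% of all genes, and 7 had an unadjusted p below 0.05, against 7.67%. Over all lesions, again 11 of 11 were negative, with a median of -0.83, 0 called, against 0.00906% of all genes, and 6 at an unadjusted p below 0.05, against 9.94%. There Cyp2c37 and Cyp2c50 were at -1.76 and -1.62, each with an adjusted p of 0.0872. Of the transporters, 1 of 6 fell in HCC. It was Slco1a4, an uptake transporter of bile acids and drugs, which read 422 in the male and 1538 in the female HCC, against 1766 in the male and 7869 in the female adjacent liver. Its log2 difference of -2.18 ± 0.27 had an adjusted p of 0.0398, which was below 0.05 in 6 of 15 alternatives. The settings under which it missed the threshold included quantile normalization, at 0.0777, no intensity trend and the model over all arrays, and were not only these. With any 1 array left out, in fits that cover all arrays and drop the pairing, its difference ran between -2.51 and -1.85. Over all lesions the Slco1a4 value was -2.07 ± 0.19 with 0.0694. There 4 of 6 transporters had positive differences, with a list median of 0.51, and 0 were called in limma. Abcb1a at 0.96 and Abcc2 at 0.68 were higher in all 3 pairs, whereas Slco1a4 and Slco1b2 were lower in all 3. In HCC alone, 4 of 6 transporters had negative differences, with a list median of -0.65. Abcc4 was at -0.85 and Abcc3 at -0.46 in HCC, but at 1.26 and 0.35 once the nodule pair was added. Abcc4 read 21089 in the nodule, against 456 in its adjacent liver. The fitted differences of the 3 other Cyp2b and Cyp3a genes were all positive in HCC, with a median of 0.73 and 0 called. Cyp2b9 differed by -0.28 in the female pair and by 2.29 in the male pair. Cyp2b13, the median gene, read 52.1 in the female HCC and 28.5 in the male HCC. Its adjacent livers read 19.3 and 14.7, near the added constant of 16.8. Over all lesions 2 of the 3 were positive, with a median of 0.47 and 0 called. The HCC and all-lesion comparisons share 2 pairs.

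**Figure D4:**
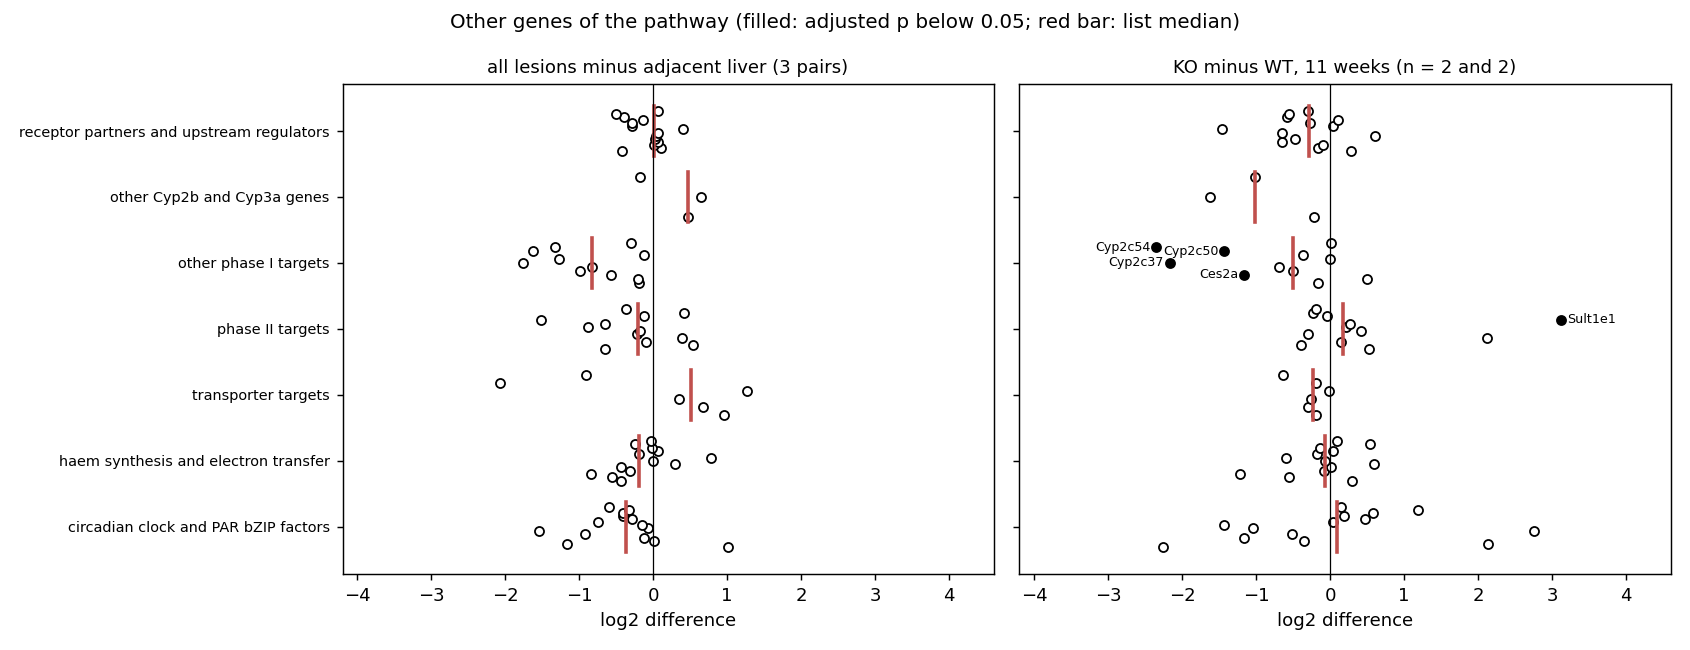
Log2 differences of the other genes of the pathway by list, 1 point per gene, with medians as vertical bars and called genes filled and named, for all lesions minus adjacent liver and for KO minus WT at 11 weeks. The phase I list has its median at -0.83 over all lesions and at -0.50 in young KO liver.

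Markers of some other cell types were lower in the young KO pools, and those of others were not. Endothelial cell markers, 8 of 8 measured, summed to 4639 and 4463 in the KO pools, against 8553 and 11666 in the WT pools. Of 7 tested in limma, 2 fell, where 0.743% of all genes did. Macrophage and Kupffer cell markers summed to 11158 and 12470 in the KO pools, against 13763 and 21463 in the WT pools. In limma 0 of 9 were called, against 1.45% of all genes, and 3 had an unadjusted p below 0.05, against 19.5%. Hepatocyte marker sums were 446428 and 502708 in the KO pools, against 495471 and 558892 in the WT pools, with 0 of 8 called. Differences were positive for 6 of 9 stellate cell and fibroblast, 2 of 3 cholangiocyte, 4 of 5 B and plasma cell and 2 of 2 neutrophil markers. Their list medians were 0.13, 0.16, 0.18 and 0.56 log2 units, against -0.05 over all genes, and 0 were called. The 1 T and NK cell marker tested was at -0.71. Among the lesions, the macrophage sum was 20602 in the nodule, against 10568 in its adjacent liver, and 26006 in the male and 20432 in the female HCC, against 21903 and 20758 in the adjacent livers of the male and the female. No marker was listed at 0. In bulk tissue, fewer cells of a type and less RNA per cell cannot be told apart, and the part of cell composition in the member values was not tested.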

How the data were processed

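Per the labels, biotin-labelled RNA was made by the standard Affymetrix protocol, and the submitters' processing notes name GCOS, with the version not given in the sources used here. The authors deposited linear-scale intensity values for 45101 probe sets, and the trimmed mean of each array, with 2% left out at each end, was 500. A single gene was listed for 34958 probe sets, several for 932 and none for 9211, so those had no name here.

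Signals were taken to log2 after adding 16.8, their 20th percentile. Each gene was represented by 1 probe set and kept where its mean passed that of a signal of 91, the median over the table. Linear models with an intensity trend were fitted in limma 3.58.1 (R 4.3.3), with sex, mouse or genotype as a term, and p-values were adjusted by Benjamini-Hochberg over 11033 genes. The procedure was tested on simulated data, where the share of false calls exceeded the nominal 0.05 for KO against WT, HCC and the sexes but not for the other comparisons, and where most smaller changes were missed. The fits left 1 or 2 residual degrees of freedom, so most of the error estimate is borrowed from other genes. Nothing says that the 2 pools of a genotype cover the spread between mice, since each is 1 pool per sex.

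The members and lists were chosen with earlier results of these data known. The genes named were the members, the 3 genes with the nearest patterns, clone and prediction names left out, and up to 4 genes per list and comparison with the largest differences, with Gnmt, Dbp and Arntl. The selection rule said only highest mean signal. Linear means were fitted first, for both the probe set and the filter, and left Cyp2b10 at an adjusted p of 0.0602. The mean of log2 values was then adopted because it matched the gene counts of an earlier treatment of these data, after it was seen that it moved Cyp2b10 to 0.049, and a mixture of both gave 0.0453. All 6 members have the same probe set either way.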

Additional observations from a re-analysis of the deposited data

Results flagged for a closer look

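A few differences ran in opposite directions in a pair of groups under the same contrast, and none of these differences between groups was tested. Nr1i2 differed by 0.12 log2 units between females and males in the KO pools and by -0.52 in the WT pools. On its second probe set females were below males in both genotypes, at 738 against 843 in KO and 731 against 933 in WT. Nr1i3 differed by -0.072 in the KO pools and 0.67 in the WT pools under the same contrast of females and males. Between lesion and adjacent liver, Nr1i2 averaged -0.45 over the 2 females and 0.02 in the male, and Cyp3a13 averaged -0.90 over the 2 females and 0.25 in the male. Between adjacent aged KO liver and the young KO pools, Cyp3a25 averaged 0.19 in females and -0.67 in the male. With 1 or 2 arrays behind each value, the spread within a group is not known. No group had enough arrays for a check on single arrays that stand apart within it.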

How the results depend on the processing

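The alternatives halved or doubled the added constant, used quantile normalization or centring on each array's 75th percentile, dropped or raised the filter, took the median of a gene's probe sets, dropped the intensity trend, fitted all arrays in 1 model, or left out each array. Fits over all arrays, also those with an array left out, had group and sex as terms and dropped the pairing of lesions. Linear means and the other probe sets of Cyp2b10 and Nr1i2 were added after seeing the data. Of 483 member values recomputed, 424 kept their direction and their side of the threshold, 12 were no longer called, 1 became called and 46 changed sign. The 12 are all of Cyp2b10 in young KO liver, and the 1 is Nr1i3 there under quantile normalization. The cause was not tested.

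For KO against WT, 2 members were called under quantile normalization, and 0 with no filter, the filter at the 60th percentile, the median of probe sets, linear means, no trend, the model over all arrays, and any pool left out. Genes called numbered 607 under quantile normalization, 313 after 75th percentile centring, 88 with linear means, 1 without the trend, 1 in the model over all arrays, and 0 to 9 with a pool left out. Centring turned Cyp3a13 to 0.027 and Cyp3a25 to 0.046, while it moved the median of all genes to 0.10, against -0.05, and the second probe set put Nr1i2 at -0.064. With a pool left out, Nr1i2 ran between -0.14 and 0.83, Cyp3a13 between -0.45 and 0.19 and Cyp3a25 between -0.47 and 0.24.

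For HCC, genes called numbered 3 under quantile normalization, 4 after centring, 16 with no filter, 4 with the higher filter, 16 with the median of probe sets, and 0 without the trend, in the model over all arrays and with any array left out. With an array left out, Nr1i2 ran between -0.63 and 0.22, Cyp2b10 between -2.79 and 0.29, Cyp3a11 between -0.33 and 0.044 and Cyp3a13 between -1.23 and 0.28. Over all lesions, genes called numbered 3 after centring, 3 with no filter, 2 with the higher filter, and 0 with the median of probe sets, in the model over all arrays and with any array left out, and Cyp2b10 ran between -1.76 and 0.083 with an array left out.

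For adjacent aged against young KO liver, centring put Cyp3a13 at -0.017 and moved the median of all genes to -0.10, against 0.08. With an array left out, Nr1i2 ran between -0.40 and 0.024, Cyp2b10 between -0.61 and 3.12 and Cyp3a25 between -0.53 and 0.12.

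For females against males, genes called numbered 87 under quantile normalization, 1 without the trend, 8 in the model over all arrays, and 5 to 22 with a pool left out. Cyp3a11 turned to -0.13 under quantile normalization and to -0.068 after centring, which put Cyp3a25 at -0.019. The model over all arrays gave 0.21 for Nr1i2, -0.013 for Nr1i3, -0.77 for Cyp2b10, -0.21 for Cyp3a11 and -0.27 for Cyp3a13. With a pool left out, Nr1i2 ran between 0.24 and 0.45, Nr1i3 between -0.24 and 0.0068, Cyp2b10 between -1.70 and -1.28, Cyp3a11 between -0.31 and -0.30 and Cyp3a13 between -0.44 and -0.39. These fits take the sex difference partly from aged tissue.

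The lesion comparisons were paired, with the mouse as a term, and the labels give no replicate numbers for a further block. The pairing was dropped in the model over all arrays and with any array left out. For lesions, the effect of a lost array and that of the lost pairing therefore cannot be told apart. Signals near the added constant limit the sizes of the largest folds, and the number of arrays limits all.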
